A study of Homo sapiens with 12 samples.

Results

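The integrin and laminin genes measured in MDA-MB-231 cells are described here. Their members were the probes on the array whose transcript belongs to a gene with an integrin symbol (ITGA or ITGB) or a laminin chain symbol (LAMA, LAMB or LAMC), and 37 of the 20708 genes on the array are described, 26 integrins and 11 laminins. MDA-MB-231 is an established human breast cancer line, and its total RNA was measured on 12 one-colour Agilent exon arrays in 4 groups of 3. The control cells (cntrl) were compared with cells that received a miR-145-5p mimic (mimic145), cells whose AGO2 was silenced with a Dicer-substrate siRNA (sirnaAGO2), and cells that received both (sirnaAGO2+mimic145). The methods give 5 nM for the precursor miRNA or its negative control and 500 pM for the siRNA or its negative control, with 72 h of silencing, but which negative controls each single array had received is not given in the sources used here. All 4 groups are transfections of the same cell line, and nothing says that the replicates came from separate cultures, so the p-values measure only the spread between these arrays, which may be technical. Values are log2 of the background-subtracted intensity after quantile normalization, and a gene is the mean of its kept probes, a probe being kept if in at least 1 group its 3 arrays all called it well above background. A difference of 1 on this scale is a doubling. A gene passed when its adjusted p (limma blocked on the replicate number, Benjamini-Hochberg over all 18256 genes tested) was under 0.05.

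Integrins are cell surface receptors made of an α and a β chain. They bind the extracellular matrix outside the cell and the actin cytoskeleton inside it, and carry adhesion, migration and survival signals. The pairing decides the ligand: ITGA3, ITGA6 and ITGA7 bind laminins with ITGB1, ITGA6 also with ITGB4 in hemidesmosomes, ITGA1, ITGA2, ITGA10 and ITGA11 bind collagens with ITGB1, and ITGAV or ITGA5 heterodimers bind the RGD motif of fibronectin and vitronectin. Laminins are secreted trimers of an α, a β and a γ chain that form the backbone of basement membranes, and LAMA3 and LAMB3 are chains of the laminin that anchors epithelial cells. AGO2 is an Argonaute protein. Argonautes hold a miRNA and its target in the silencing complex, and AGO2 is the only human Argonaute with nuclease activity. In a bulk extract, fewer cells of a type and less RNA per cell cannot be told apart, which holds for every difference below.

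The mature miRNA that the mimic supplies is shown because pairing of its seed, bases 2 to 8 in capitals, is what selects its targets. It is printed from 5′ to 3′ as RefSeq gives it (assembly GRCh38.p14), and is 23 bases long.
miR-145-5p: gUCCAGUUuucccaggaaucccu

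Of the 37 genes, 36 had at least 1 kept probe. The exception was ITGA4, the α chain of a VCAM1 and fibronectin receptor of leukocytes, for which 0 of 28 probes were kept and which was therefore not tested. In all, 669 of 1158 member probes were kept (57.8%), against 142957 of 209671 (68.2%) over all genes. Detection was uneven between the classes. Nearly all probes were kept for several matrix receptor chains, with 22 of 22 for ITGB1, 27 of 28 for ITGA6, 37 of 38 for ITGB4, 29 of 30 for ITGA2 and 30 of 30 for ITGAV. The epithelial laminin chains LAMA3 and LAMB3 were likewise kept on 67 of 76 and 26 of 26 probes. By contrast, the 7 leukocyte integrins that were tested (ITGAD, ITGAE, ITGAL, ITGAM, ITGAX, ITGB2 and ITGB7) kept 77 of 182 probes. Several members rested on very few probes: ITGA3 has only 2 on the array, and ITGB6 and ITGB8 kept 1 each.

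**Figure D1:**
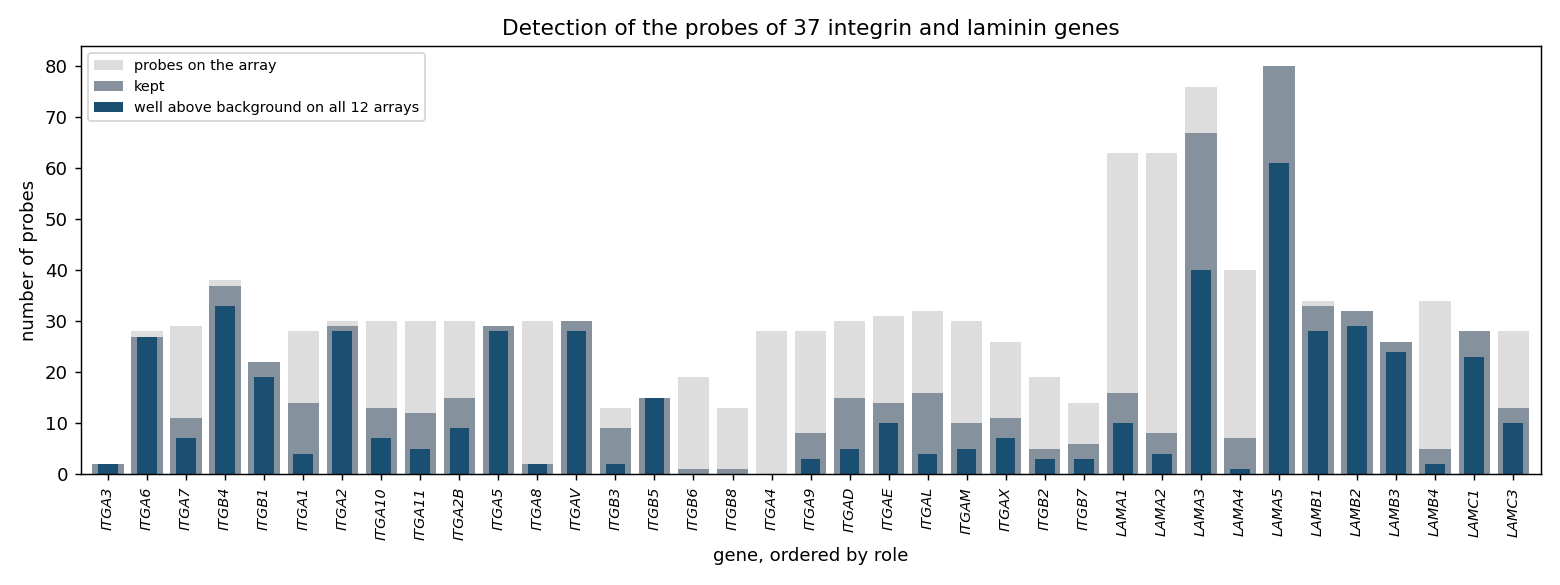
Number of probes of each of the 37 genes that are on the array (light bars), were kept (grey bars) and exceeded background clearly on each of the 12 arrays (dark bars), with the genes ordered by role on the x axis. ITGA6, ITGB1, ITGA5, ITGAV, LAMA5, LAMB3 and LAMC1 were kept on nearly all their probes, ITGA4 on 0, and most leukocyte integrins on fewer than 50%.

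The silenced gene was examined first. AGO2, with 19 of 19 probes kept, had log2 intensities of 9.21, 9.14 and 9.01 in cntrl, 9.44, 9.36 and 9.39 in mimic145, 8.35, 8.44 and 8.42 in sirnaAGO2, and 8.27, 8.35 and 8.41 in sirnaAGO2+mimic145. All 6 silenced arrays lay below all 6 others. AGO2 fell to 61.0% of cntrl in sirnaAGO2 (log2 difference -0.71, SE 0.076, adjusted p = 0.00494) and to 48.1% of mimic145 in sirnaAGO2+mimic145 (adjusted p = 0.000792), and it was higher by 0.28 with the mimic alone (adjusted p = 0.0299). On each array 60.5% to 77.3% of spots were well above background and 0 were saturated. The mesenchymal and basal markers of this line were detected (VIM 9 of 9 probes, CD44 18 of 18, EGFR 30 of 31), and the luminal markers FOXA1 and PGR kept 0 of 2 and 0 of 9, while ESR1 kept 6 of 14, CDH1 7 of 16 and GATA3 6 of 6. On all 6 slides the array without mimic sat in position 1 and the array with mimic in position 2, so mimic and slide position cannot be told apart. No slide held both silenced and unsilenced arrays.

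The first comparison asked what the miR-145-5p mimic did in cells with unsilenced AGO2. Integrin chains moved in both directions: the laminin-binding chain ITGA6 and the collagen-binding chain ITGA2 rose, whereas ITGA1, ITGAV and ITGB3 fell. The laminin chains also split, with the β chains LAMB1 and LAMB3 higher and LAMA3 and LAMC1 lower. In all 9 of 36 members passed (25%), 5 lower and 4 higher, beside 22.5% of all genes tested (11.0% lower and 11.6% higher), and 11 had an unadjusted p under 0.05, beside 35.4%. Over all members these shares are near the background, and the median difference of the members was 0.006 against 0.012 over all genes. The share that passed differed with detection. All 9 were among the 19 members with at least 50% of their probes kept (47.4%, beside 26.5% of such genes on the whole array). Of the 17 members with fewer than 50% kept 0 passed, beside 9.26% of such genes. These differences between shares were not tested. By family, 4 of 11 laminins and 5 of 25 integrins passed. None of the 7 leukocyte integrins passed, and 5 of them had fewer than 50% of their probes kept. The count rested on the replicate block: without it 3 members passed, ITGA2, ITGA6 and LAMB3, all higher. It was 6 when the mimic145 array of replicate 1 or the cntrl array of replicate 3 was left out, and 2 to 4 when a whole replicate was left out. With the median over probes 7 members passed, 2 lower and 5 higher: ITGAV, ITGB3 and LAMC1 were lost and ITGA7 was gained.

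**Figure D2:**
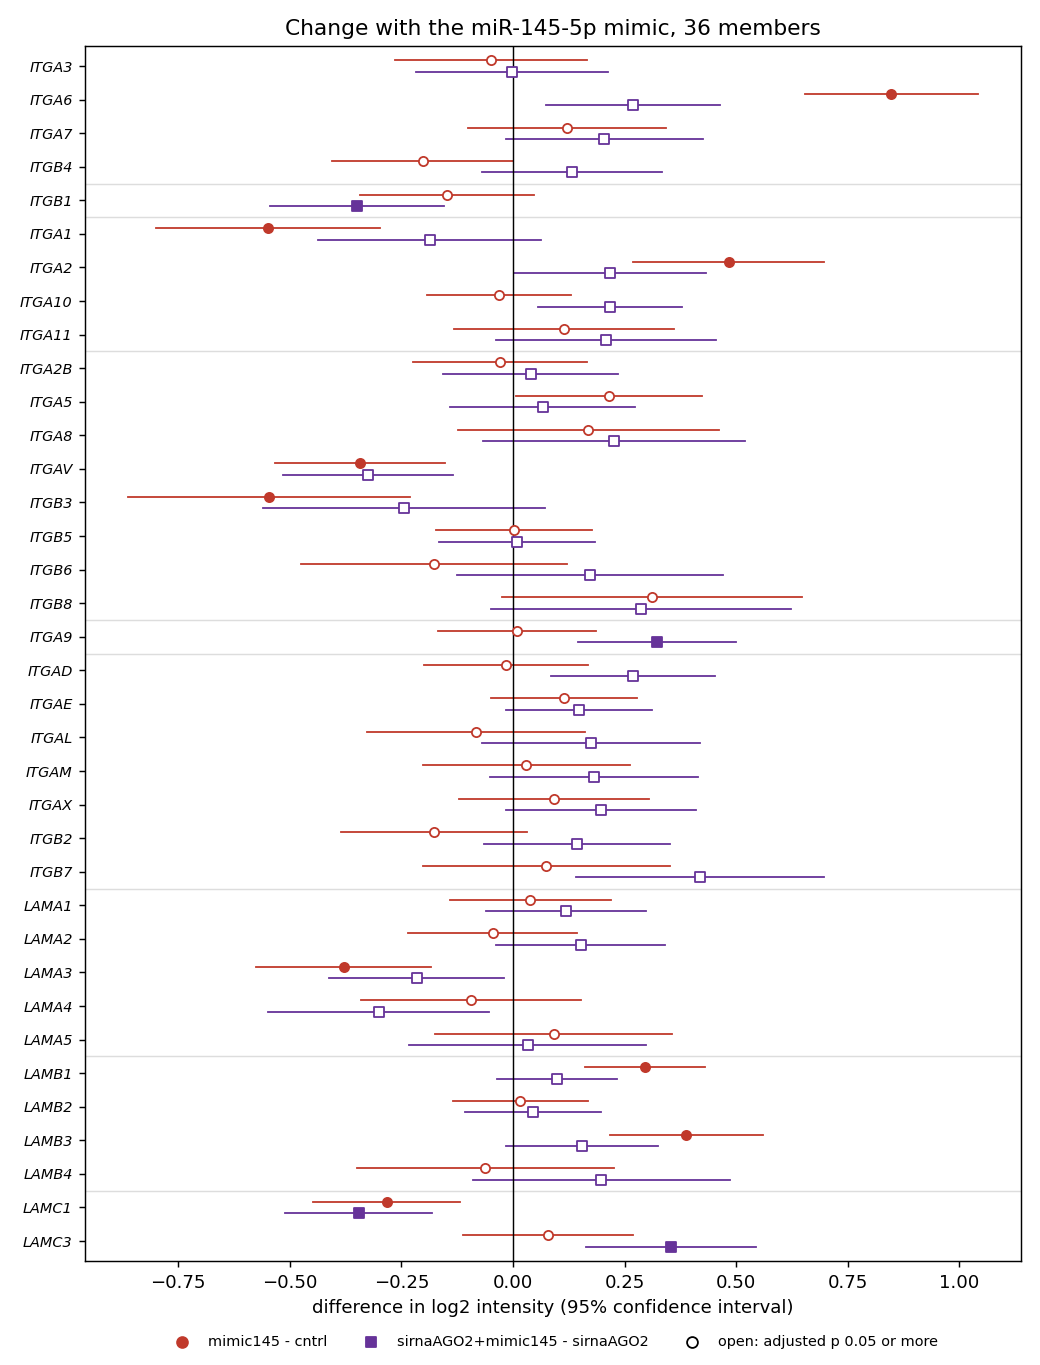
Difference in log2 intensity with the mimic for the 36 tested members, ordered by role on the y axis, in unsilenced cells (mimic145 minus cntrl, red circles) and in AGO2-silenced cells (sirnaAGO2+mimic145 minus sirnaAGO2, purple squares). Lines are 95% confidence intervals and filled symbols passed at an adjusted p under 0.05. ITGA6 stands farthest to the right at 0.85 in unsilenced cells and lies at 0.27 in silenced cells.

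ITGA6 forms the laminin receptors of epithelial cells with ITGB1 and ITGB4. Its log2 intensities were 10.20, 10.37 and 10.19 in cntrl and 11.16, 11.14 and 10.99 in mimic145, that is 10.25 ± 0.10 against 11.10 ± 0.09 (SD, n = 3). Every mimic145 array lay above every cntrl array. The difference was 0.85 (SE 0.086, 95% confidence interval 0.65 to 1.04, adjusted p = 0.000398), a 1.80-fold increase, and 27 of 27 probes were higher. ITGA6 passed without each array and without each replicate.

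Its partner chains did not pass. ITGB4, the hemidesmosomal β chain, read 8.77, 8.67 and 8.34 in cntrl and 8.36, 8.44 and 8.38 in mimic145, so the groups overlapped (difference -0.20, adjusted p = 0.141). ITGB1, the β chain shared by most matrix receptors, read 12.17, 11.80 and 12.62 against 12.04, 11.85 and 12.25, and its difference of -0.15 (SE 0.086, adjusted p = 0.253) was within the spread between arrays. The other laminin-binding α chains did not pass either. ITGA3 read 10.98, 11.39 and 11.29 in cntrl and 10.77, 11.37 and 11.38 in mimic145 (difference -0.05, 95% confidence interval -0.27 to 0.17), on 2 probes. ITGA7, a laminin receptor chain best known from muscle, read 7.38, 7.54 and 7.17 against 7.35, 7.68 and 7.43 (difference 0.12, adjusted p = 0.417), and passed with the median over probes (0.34, adjusted p = 0.0268).

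Both collagen-binding chains that passed went opposite ways. ITGA2, the α chain of the collagen and laminin receptor of epithelial cells and platelets, read 8.97, 8.74 and 8.78 in cntrl and 9.32, 9.22 and 9.40 in mimic145. All mimic145 arrays were above all cntrl arrays, and the gene rose by 0.48 (SE 0.095, adjusted p = 0.00711), or 1.40-fold, on 29 of 29 probes. ITGA1, whose receptor prefers basement membrane collagen, read 7.40, 7.11 and 7.84 in cntrl and 6.95, 6.71 and 7.05 in mimic145. Here all mimic145 arrays were below all cntrl arrays. ITGA1 fell by 0.55 on the log2 scale, to 68.4% of cntrl (SE 0.111, adjusted p = 0.00806), and 14 of 14 kept probes were lower. ITGA2 lost its call without replicate 2 (difference 0.49) and ITGA1 without replicate 1 (difference -0.60), and neither lost it without any single array.

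Among the RGD-binding chains, ITGAV and ITGB3, which together form the vitronectin receptor, both fell. ITGAV read 9.06, 8.95 and 9.50 in cntrl and 8.79, 8.73 and 8.96 in mimic145, and ITGB3 read 6.58, 6.75 and 7.38 against 6.28, 6.28 and 6.51. For ITGAV the highest mimic145 array reached just above the lowest cntrl array, whereas for ITGB3 the groups did not overlap. ITGAV fell by 0.34 (SE 0.084, adjusted p = 0.0187, 30 of 30 probes lower) and ITGB3 by 0.55 (SE 0.140, adjusted p = 0.0223, 9 of 9 kept probes lower). Of 13 ITGB3 probes 9 were kept, and only 2 were well above background on all 12 arrays. As for ITGA1, the probe count is therefore not separate support for the fall. For both ITGAV and ITGB3 the cntrl array of replicate 3 was the highest of all 12. ITGAV no longer passed without that array or without the mimic145 array of replicate 1 or 3 (differences between -0.34 and -0.24). ITGB3 was lost without any one of 5 arrays (cntrl replicates 2 and 3 and mimic145 replicates 1, 2 and 3), with differences between -0.58 and -0.38. Both were lost when any whole replicate was left out, and when the gene was taken as the median of its probes, where ITGAV was at -0.29 (adjusted p = 0.0728) and ITGB3 at -0.50 (adjusted p = 0.0821). The other β chains that pair with ITGAV gave no call: ITGB1 is given above, ITGB5 with 15 of 15 probes kept differed by 0.00, ITGB6 by -0.18 and ITGB8 by 0.31, the last 2 on 1 kept probe each. ITGA5, the α chain of the main fibronectin receptor, differed by 0.22 (SE 0.092, adjusted p = 0.129).

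**Figure D3:**
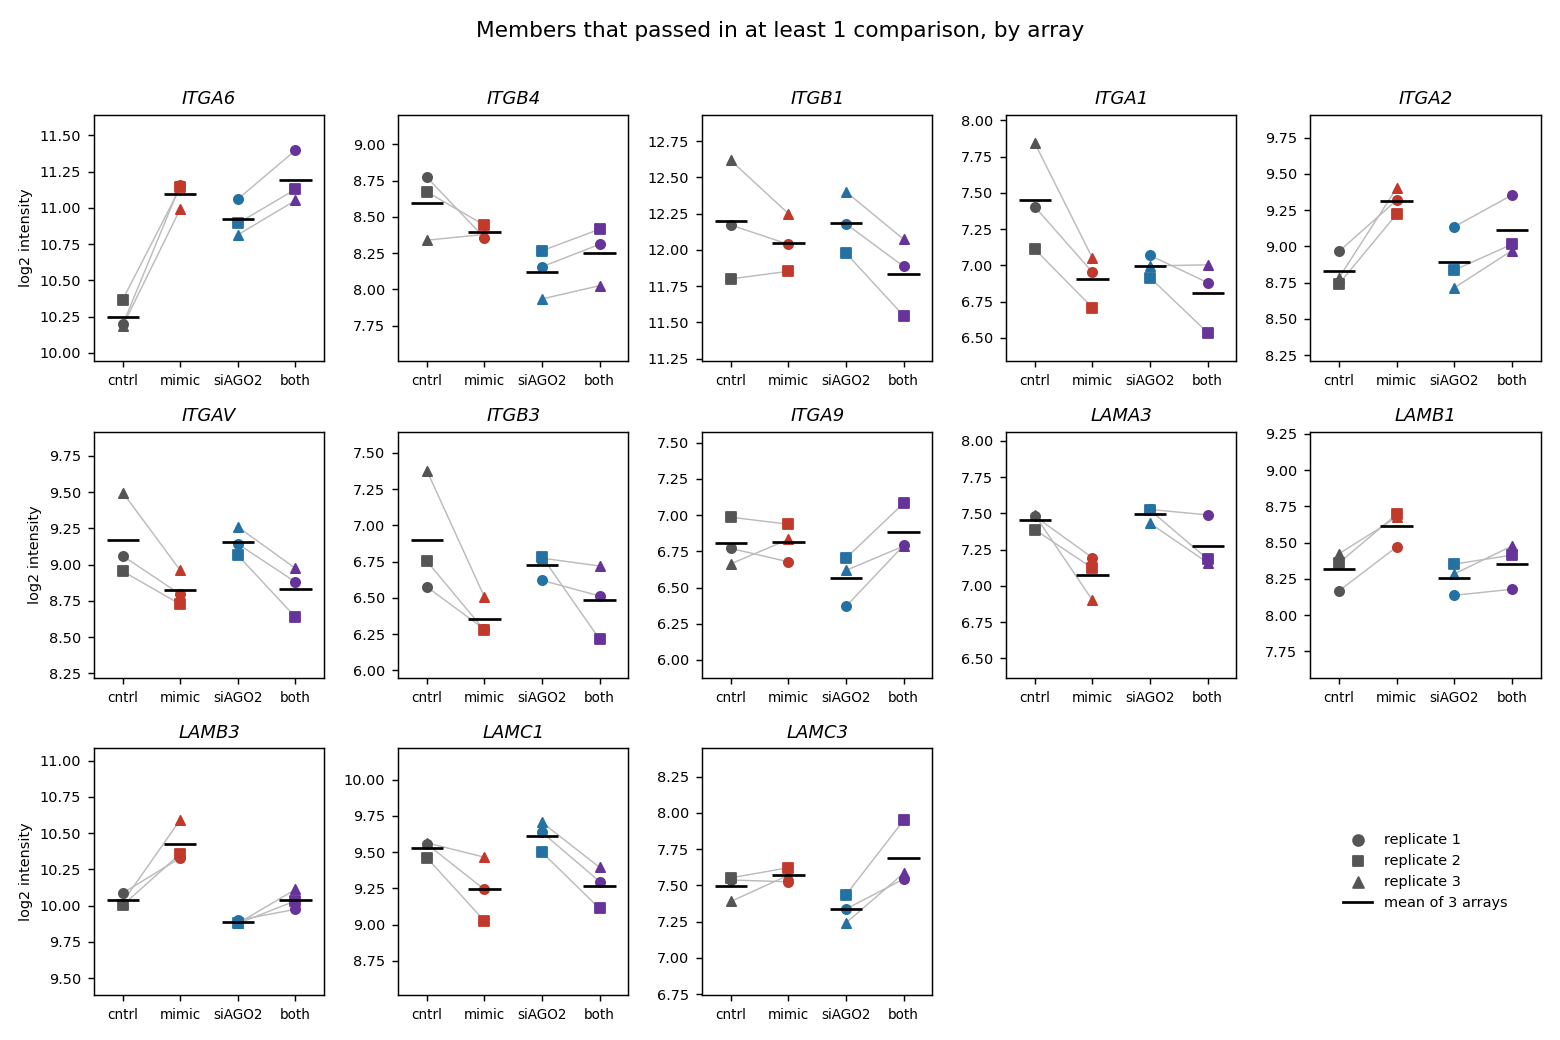
Log2 intensity on each of the 12 arrays for the 13 members that passed in at least 1 comparison, one panel per gene with its own y axis. The x axis gives the group (both is sirnaAGO2+mimic145), marker shapes are replicates 1 to 3, black lines are means of 3 arrays, and grey lines join the arrays of the same slide. ITGA6 is lower in the 3 cntrl arrays than in all other arrays, and LAMB3 is highest in the 3 mimic145 arrays.

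The epithelial laminin chains LAMA3 and LAMB3 went opposite ways. LAMB3, a β chain, read 10.09, 10.00 and 10.03 in cntrl and 10.33, 10.36 and 10.59 in mimic145. LAMA3, an α chain, read 7.48, 7.39 and 7.49 against 7.19, 7.12 and 6.90. The mimic145 arrays were all above cntrl for LAMB3 and all below cntrl for LAMA3. LAMB3 rose by 0.39 (SE 0.075, adjusted p = 0.00682, 24 of 26 probes higher), a 1.31-fold increase. LAMA3 fell by 0.38, to 76.9% of cntrl (SE 0.086, adjusted p = 0.0138, 60 of 67 probes lower). LAMB3 kept its call without each single array, and LAMA3 lost it without the cntrl or the mimic145 array of replicate 3 (differences -0.32 and -0.30). Both lost it when any whole replicate was left out, with adjusted p from 0.0522 to 0.0709 for LAMB3 and from 0.0564 to 0.140 for LAMA3.

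The widely expressed chains LAMB1 and LAMC1, which share many laminin trimers, also went opposite ways. LAMB1 read 8.17, 8.36 and 8.42 in cntrl and 8.47, 8.69 and 8.67 in mimic145, with no overlap, and rose by 0.30 (SE 0.060, adjusted p = 0.00822, 30 of 33 probes higher). LAMC1 read 9.56, 9.46 and 9.56 against 9.24, 9.03 and 9.47, where the replicate 3 array with mimic reached the lowest cntrl array. It fell by 0.28 (SE 0.072, adjusted p = 0.0223, 27 of 28 probes lower). LAMB1 was lost when any whole replicate was left out (adjusted p from 0.0513 to 0.121). LAMC1 was lost without the cntrl or mimic145 array of replicate 1 or 2 (differences between -0.28 and -0.23), without either replicate as a whole, and, when the gene was taken as the median of its probes, at -0.15 (adjusted p = 0.244). LAMA5 and LAMB2, an α and a β chain of laminins of mature basement membranes, were kept on 80 of 80 and 32 of 32 probes and differed by 0.09 and 0.02, without a call. The 27 members that did not pass differed by -0.20 (ITGB4) to 0.31. The upper end was ITGB8, a β chain of ITGAV, on its single kept probe.

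Each gene is sampled by several probes, whose differences were also read singly. The median over probes was 0.89 for ITGA6 and 0.50 for ITGA2, and their lowest probes were at 0.19 and 0.11. Single probes stood far from the rest in other genes, at -1.66 for LAMA3, -1.24 for LAMC1 and -1.14 for ITGAV. Without these probes the means were -0.36, -0.25 and -0.32, so the directions did not rest on them. The kept LAMA3 probes are assigned to 2 transcript models. The 26 probes of the model NM_198129 had a mean of -0.55 ± 0.196 (SD over 3 replicate pairs) and the 41 of NM_001127717 a mean of -0.27 ± 0.182. In each of the 3 pairs the first set fell further, by -0.39, -0.50 and -0.77 against -0.22, -0.12 and -0.47. The kept ITGA6 probes are likewise split, with 3 probes of NM_000210 at 1.17, 0.89 and 0.93 in the 3 pairs and 24 of NM_001079818 at 0.94, 0.76 and 0.79. The probes of a gene share their arrays and are not independent, and these differences were not tested.

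**Figure D4:**
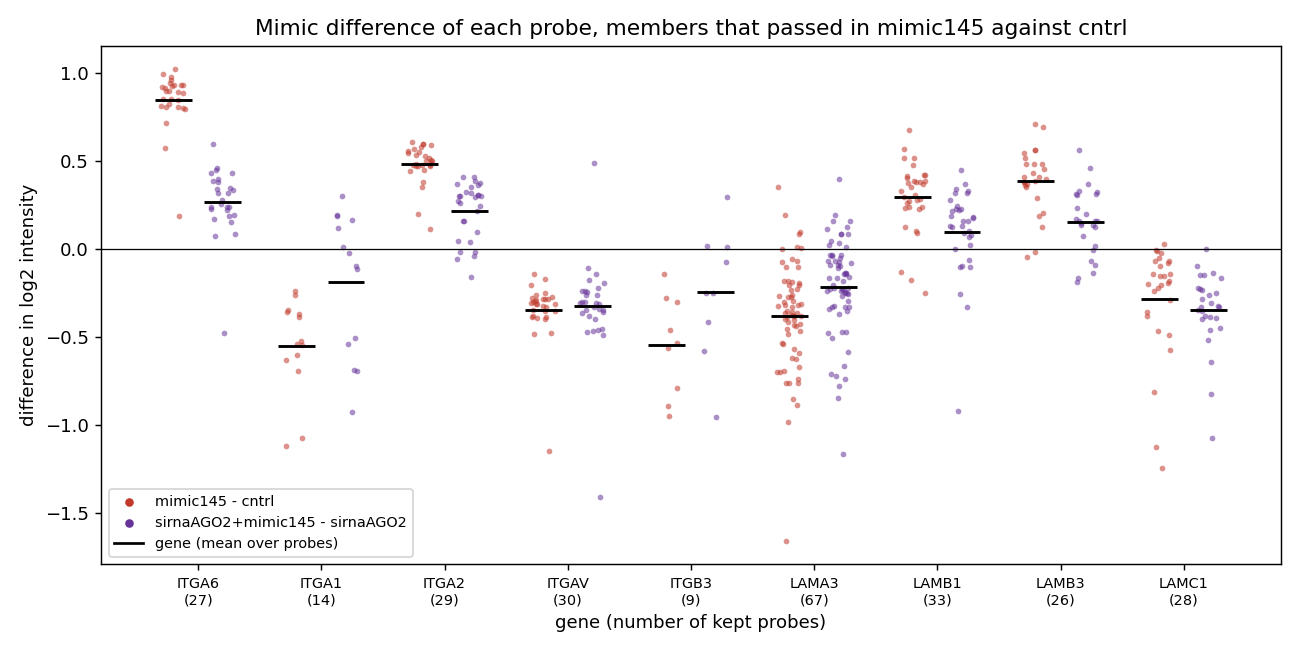
Difference in log2 intensity with the mimic for each kept probe of the 9 members that passed in mimic145 against cntrl (number of probes in parentheses), in unsilenced cells (red) and AGO2-silenced cells (purple). Black lines are the gene's mean over probes. All 27 ITGA6 probes and all 29 ITGA2 probes lie above 0 in unsilenced cells, and all 30 ITGAV and all 14 ITGA1 probes lie below 0.

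The second comparison asked what the mimic did when AGO2 was silenced. LAMC1 and ITGB1 fell, and LAMC3 and ITGA9 rose. Thus 4 of 36 members passed (11.1%), beside 7.28% of all genes (3.03% lower and 4.25% higher), and 12 had an unadjusted p under 0.05, beside 28.8%. LAMC1 is the only one of the 4 that had also passed with the mimic in unsilenced cells. Of the 36 estimates 28 were above 0, with a median of 0.149 against 0.020 over all genes.

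LAMC1 read 9.64, 9.50 and 9.71 in sirnaAGO2 and 9.30, 9.11 and 9.40 in sirnaAGO2+mimic145. The groups did not overlap. The gene fell by 0.35 (SE 0.072, adjusted p = 0.0312) on 28 of 28 probes. ITGB1 read 12.18, 11.98 and 12.40 against 11.89, 11.55 and 12.07, with overlap between replicates but a lower value with the mimic in each pair. It fell by 0.35 (SE 0.086, adjusted p = 0.0447), and 20 of 22 probes were lower. One ITGB1 probe differed by -2.08. The mean of the others was -0.27, and with the median over probes ITGB1 no longer passed (difference -0.18, adjusted p = 0.433).

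LAMC3, a γ chain with a restricted tissue distribution, read 7.34, 7.43 and 7.24 in sirnaAGO2 and 7.54, 7.95 and 7.58 in sirnaAGO2+mimic145. ITGA9, the α chain of a tenascin and VCAM1 receptor, read 6.37, 6.70 and 6.62 against 6.79, 7.08 and 6.79. In both genes all arrays with mimic were above all arrays without it. LAMC3 rose by 0.35 (SE 0.084, adjusted p = 0.0412, 12 of 13 kept probes) and ITGA9 by 0.32 (SE 0.078, adjusted p = 0.0436, 6 of 8 kept probes). Both genes have 28 probes on the array, and a probe could be kept through the higher group alone. Both calls depended on the probe filter: without it 2 members passed in this comparison, both lower, and 0 were higher. One ITGA9 probe differed by 0.99, and the mean of the others was 0.23. ITGA9 passed in only 4 of 28 alternatives to the processing. With 1 array left out, ITGA9 lost its call in 11 of 12 fits and LAMC3 in 9 of 12.

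Both LAMC3 and ITGA9 had fewer than 50% of their probes kept, and genes below this limit were as a class higher in this comparison. The limit is on the share of probes kept and is not a measure of brightness. The 17 members with fewer than 50% of their probes kept had a median of 0.198, with 16 of 17 estimates above 0. The 4169 genes of the whole array below the same limit had a median of 0.159, with 3050 estimates above 0. For the 19 members with at least 50% kept the median was 0.039, with 12 estimates above 0. For the corresponding 14087 genes it was -0.007, with 6818 above 0. The leukocyte integrins, of which 5 had fewer than 50% of their probes kept, had 7 of 7 estimates above 0, with a median of 0.182 and 0 passing. This held under each of the 4 scalings tried (quantile, 75th percentile, normexp and the authors' table) for the signs, but the scalings use the same arrays and are not independent. Of 5 leukocyte markers (PTPRC, CD3E, CD14, SPI1 and LCP2) 5 had a kept probe and only CD14, on 1 probe, passed, higher. Their summed linear intensity ranged from 2251 to 2804 in sirnaAGO2 and from 2927 to 4543 in sirnaAGO2+mimic145. Without CD14 it ranged from 1208 to 1486 and from 1236 to 2056, which overlap. The part of probe brightness in these shifts was not tested.

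The 32 members that did not pass differed by -0.32 (ITGAV) to 0.42 (ITGB7, a leukocyte β chain, adjusted p = 0.0688). The calls depended on the processing and on single arrays. The count was 0 without the replicate block, with slide as a fixed block, when any whole replicate was left out, and without any one of 5 arrays (the 3 sirnaAGO2 arrays and the sirnaAGO2+mimic145 arrays of replicates 2 and 3). It was 1 without the replicate 1 array of cntrl or mimic145, 2 without the cntrl array of replicate 2 or the mimic145 array of replicate 2 or 3, and 6 without the sirnaAGO2+mimic145 array of replicate 1. With each array scaled to its 75th percentile, 8 members passed (3 lower and 5 higher), and the calls over all genes went from 553 lower and 776 higher to 477 lower and 1920 higher.

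Whether the mimic effect itself differed between unsilenced and silenced cells was tested as an interaction, which uses all 12 arrays. It gave 0 members past the threshold, with 9 at an unadjusted p under 0.05, beside 0.0110% of all genes, which is 2 genes (0.00548% lower and 0.00548% higher), with 16.8% at an unadjusted p under 0.05. The smallest adjusted p among the members was that of ITGA6. Its mimic difference was 0.85 in unsilenced cells and 0.27 (adjusted p = 0.0841, 26 of 27 probes higher) in silenced cells. The difference between these was -0.58 (SE 0.121, adjusted p = 0.0887), with -0.63, -0.54 and -0.57 in the 3 replicate pairs. It passed with normexp background correction, and also when a probe had to be well above background on each of the 12 arrays. ITGA6 read 11.06, 10.89 and 10.81 in sirnaAGO2 and 11.40, 11.13 and 11.05 in sirnaAGO2+mimic145, and these 6 arrays and the 3 of mimic145 all lay above the 3 cntrl arrays.

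For the other chains that passed with the mimic in unsilenced cells, the difference between the mimic effects was not past the threshold. LAMB3 differed by 0.16, LAMB1 by 0.10 and ITGA2 by 0.22 in silenced cells, and ITGA1 by -0.19, ITGB3 by -0.24 and LAMA3 by -0.22. None of these 6 passed in silenced cells. ITGA2 read 9.14, 8.84 and 8.71 in sirnaAGO2 and 9.35, 9.01 and 8.97 in sirnaAGO2+mimic145, so that the groups overlapped but each array with mimic was above its replicate (interaction -0.27, adjusted p = 0.353). ITGA1 read 7.07, 6.91 and 7.00 against 6.88, 6.53 and 7.00, with overlap (interaction 0.36, adjusted p = 0.291). LAMA3 read 7.53, 7.52 and 7.43 against 7.49, 7.18 and 7.16, also with overlap. ITGB3 read 6.62, 6.78 and 6.77 against 6.51, 6.22 and 6.72, so that each array with mimic was below the silenced array of its replicate. ITGAV read 9.14, 9.06 and 9.26 in sirnaAGO2 and 8.88, 8.64 and 8.97 in sirnaAGO2+mimic145, with no overlap. Its differences were -0.34 in unsilenced and -0.32 (adjusted p = 0.0514) in silenced cells, with an interaction of 0.02 (95% confidence interval -0.25 to 0.29). This interval does not show that the effects were equal. LAMC1 was at -0.28 and -0.35 (interaction -0.06, adjusted p = 0.779). The laminin receptor chains ITGA3 and ITGA7 gave no call in silenced cells. ITGA3 read 10.93, 11.17 and 11.38 in sirnaAGO2 and 11.02, 11.26 and 11.20 in sirnaAGO2+mimic145, and ITGA7 read 7.39, 7.30 and 7.04 against 7.31, 7.64 and 7.39.

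The third comparison asked what AGO2 silencing did without the mimic. It shares the cntrl arrays with the first and is not independent of it. ITGA6 rose and ITGB4, its hemidesmosomal partner, fell. These 2 of 36 members passed (5.56%), beside 2.57% of all genes (1.69% lower and 0.887% higher), and 6 had an unadjusted p under 0.05, beside 19.0%. ITGA6 was higher by 0.67 (SE 0.086, adjusted p = 0.0105), a 1.59-fold increase over cntrl on 27 of 27 probes, and the sirnaAGO2 arrays, between 10.81 and 11.06, were all above the cntrl arrays. ITGB4 read 8.16, 8.27 and 7.93 in sirnaAGO2, all below the cntrl values of 8.77, 8.67 and 8.34. It fell by 0.48, to 71.9% of cntrl (SE 0.089, adjusted p = 0.0332), and 37 of 37 probes were lower. ITGA6 was lost without the cntrl array of replicate 1 or the sirnaAGO2 array of replicate 1 or 3 (differences between 0.58 and 0.68). ITGB4 was lost without any one of 7 arrays, the 6 of both groups and the sirnaAGO2+mimic145 array of replicate 3 (differences between -0.53 and -0.40). Neither passed when any whole replicate was left out, and without the replicate block ITGA6 passed (adjusted p = 0.0418) and ITGB4 did not (adjusted p = 0.233).

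ITGA1 came close to the threshold. In ITGA1 all 3 sirnaAGO2 arrays given above were below cntrl, with a difference of -0.46 (adjusted p = 0.0663). All 14 kept probes of 28 were lower, a count with the limit given for ITGA1 in the first comparison. LAMB3 read 9.90, 9.88 and 9.88, just below all cntrl arrays, with -0.15 (adjusted p = 0.310). Of the 36 estimates 31 were below 0, with a median of -0.106 against -0.033 over all genes. Of the genes with at least 50% of their probes kept, 7248 of 14087 were below 0, with a median of -0.006. For the 19 members above this limit it was 15, with a median of -0.061. For the 17 members with fewer than 50% kept it was 16, with a median of -0.116. This comparison also shares the sirnaAGO2 arrays with the second, and the signs in them are not independent. The 7 leukocyte integrins had 7 of 7 estimates below 0 under each of the 4 scalings, which are not independent, with a median of -0.129. The genes of the whole array with fewer than 50% of their probes kept had a median of -0.116, with 3228 of 4169 below 0.

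**Figure D5:**
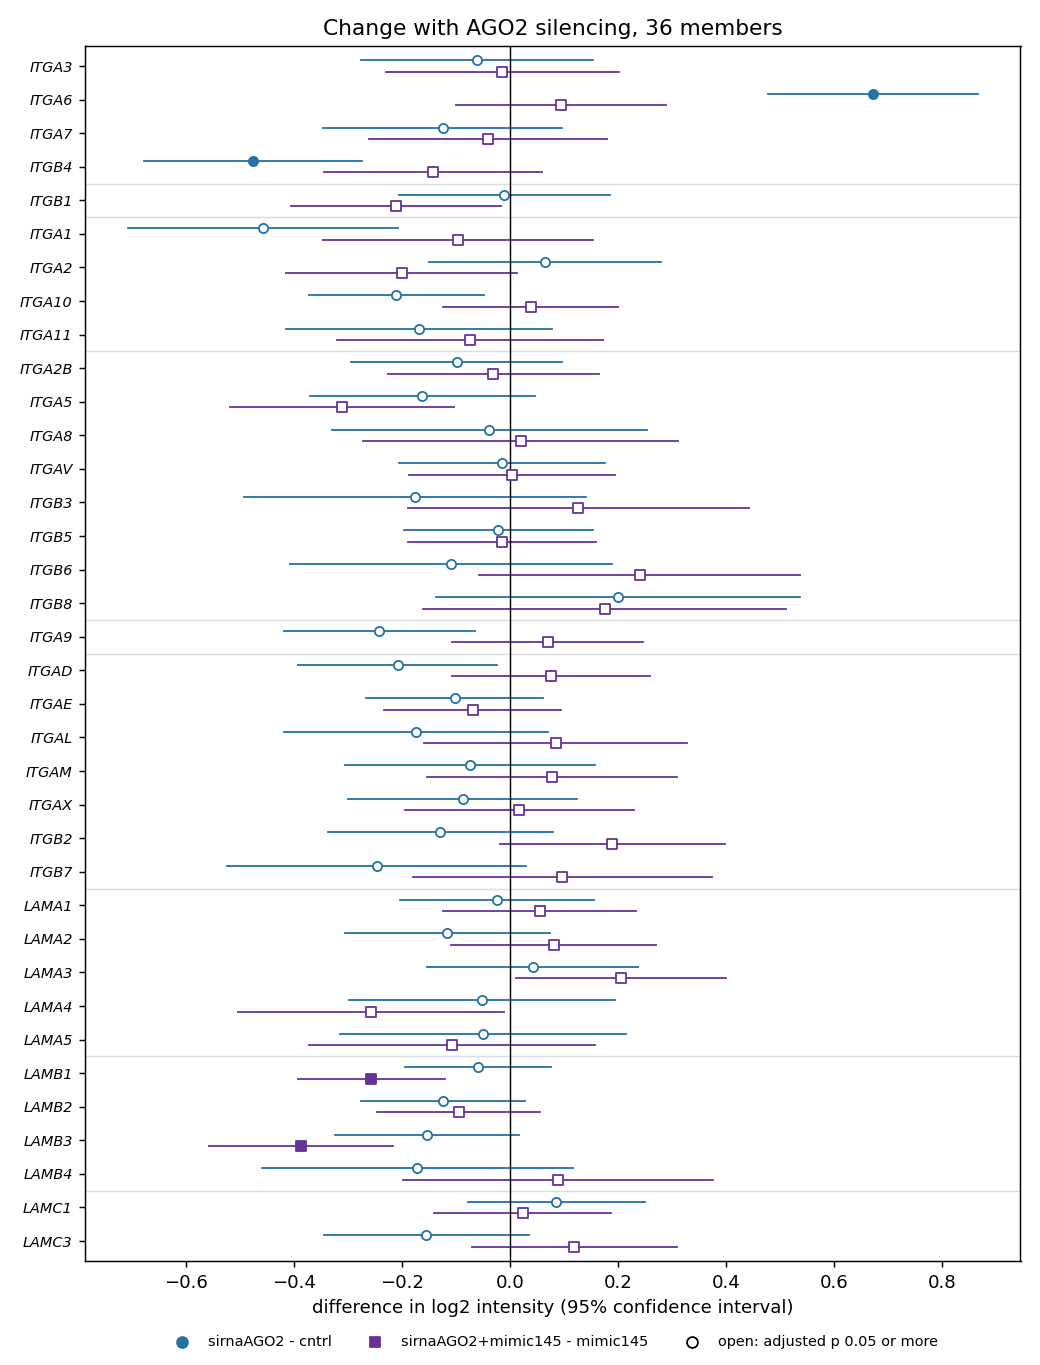
Difference in log2 intensity with AGO2 silencing for the 36 tested members, ordered by role on the y axis, without the mimic (sirnaAGO2 minus cntrl, blue circles) and with it (sirnaAGO2+mimic145 minus mimic145, purple squares). Lines are 95% confidence intervals and filled symbols passed at an adjusted p under 0.05. ITGA6 at 0.67 and ITGB4 at -0.48 passed without the mimic, and LAMB3 at -0.39 and LAMB1 at -0.26 with it.

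The fourth comparison set silenced against unsilenced cells when both had received the mimic. The laminin β chains LAMB3 and LAMB1 were lower in the silenced cells. These 2 of 36 members passed (5.56%), both lower, beside 4.31% of all genes (2.44% lower and 1.86% higher), and 6 had an unadjusted p under 0.05, beside 21.5%. LAMB3 read 9.98, 10.03 and 10.11 in sirnaAGO2+mimic145, all below the mimic145 values given above, and was lower by 0.39 (SE 0.075, adjusted p = 0.0279), at 76.5% of mimic145, on 25 of 26 probes. LAMB1 read 8.14, 8.35 and 8.28 in sirnaAGO2 and 8.18, 8.41 and 8.48 in sirnaAGO2+mimic145, of which the highest overlapped the lowest mimic145 array, and was lower by 0.26 (SE 0.060, adjusted p = 0.0483). In these same genes the mimic145 arrays had been the highest, and since both comparisons use the mimic145 arrays they are not independent. ITGA6 differed by 0.09 (adjusted p = 0.571) and ITGB4 by -0.14 (adjusted p = 0.399), where ITGB4 read 8.31, 8.41 and 8.03 with both treatments. ITGA5 read 8.93, 9.00 and 9.31 in mimic145 and 8.77, 8.67 and 8.86 in sirnaAGO2+mimic145, with no overlap, and did not pass (difference -0.31, adjusted p = 0.0922, 29 of 29 probes lower). LAMB1 lost its call without any one of the 12 arrays (differences between -0.28 and -0.24) and LAMB3 without any one of 10, all but the cntrl arrays of replicates 1 and 3 (differences between -0.43 and -0.31). Without the replicate block, or with any whole replicate left out, 0 members passed.

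The partners of integrins and laminins were then counted. Of 53 listed genes 52 were tested, and 23 passed with the mimic in unsilenced cells, 8 lower and 15 higher (44.2%, beside the 22.5% of all genes), with a median of 0.031. The proteins that link integrins to actin and signalling contributed 13 of 26 (50%), of which 3 were lower and 10 higher. The 3 lower genes, which were named after their values were seen, were TLN2 (-0.54), a talin that binds integrin tails, PARVA (-0.54), an actin-binding partner of integrin-linked kinase, and PTK2 (-0.27), the focal adhesion kinase. The 3 largest of the 10 higher genes, also chosen after their values were seen, were ZYX (0.52), zyxin of focal adhesions, VCL (0.48), vinculin, and TLN1 (0.45), the main talin. Of the 10 tested integrin ligands other than laminins, 2 fell and 4 rose (60%). Of 8 basement membrane partners of laminins, 2 fell and 0 rose (25%), and of 8 other laminin-binding surface proteins 1 fell and 1 rose (25%). The shares of these last lists are near the 22.5% of all genes. Differences between the shares were not tested.

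The genes with the largest changes among all 52 were matrix proteins and a co-receptor. THBS1, thrombospondin 1, a matrix glycoprotein that binds integrins, read 12.52, 12.44 and 12.89 in cntrl and 11.53, 11.68 and 11.39 in mimic145, and fell to 47.4% of cntrl (difference -1.08, SE 0.130, adjusted p = 0.000774). SDC4, syndecan 4, a proteoglycan that acts with integrins at focal adhesions, read 11.06, 11.12 and 11.88 against 10.41, 10.36 and 10.47 (difference -0.94, SE 0.149, adjusted p = 0.00248). TNC, tenascin C, a ligand of ITGA9 and ITGAV receptors, read 7.03, 7.18 and 7.00 against 7.60, 7.74 and 8.32 and rose by 0.81 (SE 0.144, adjusted p = 0.00443). The groups did not overlap for any of these 3.

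In silenced cells 2 of the 52 partners passed with the mimic (3.85%, beside 7.28% of all genes), SDC1, a syndecan of epithelial cells (-0.49, adjusted p = 0.0426), and FERMT1, a kindlin that activates integrins (-0.39, adjusted p = 0.0361). With silencing alone 2 passed (3.85%, beside 2.57%), the matricellular protein CCN2 (0.51, adjusted p = 0.0291) and the tensin TNS3 (-0.31, adjusted p = 0.0425). In mimic-treated cells 7 passed with silencing (13.5%, beside 4.31%), 3 lower and 4 higher. The 3 with the largest changes were FN1, fibronectin, the ligand of the ITGA5 receptor (-0.87, SE 0.120, adjusted p = 0.00934), VCL, which joins talin to actin (-0.63, SE 0.090, adjusted p = 0.0101), and PARVA (0.54, SE 0.100, adjusted p = 0.0236). The interaction gave 0 of 52, beside 0.0110% of all genes, with 13 at an unadjusted p under 0.05, beside 16.8% of all genes.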

How the data were processed

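Total RNA of 12 MDA-MB-231 samples was hybridised by the authors to one-colour Agilent exon arrays, and the deposited intensity values were the processed signals of Agilent Feature Extraction 10.7.3.1. The authors also deposited a log2 table of the same arrays, which was used as an alternative. No genome build was needed. Processed signals were floored at 1, quantile normalized between arrays and log2 transformed. Control and outlier spots were left out (304 to 462 outliers among 411345 spots per array), spots of a probe were averaged, and a gene was the mean of its kept probes, named through the RefSeq accession of the probe (23493 of 233164 probes have no gene). The 5 comparisons were contrasts of a limma 3.58.1 fit in R 4.3.3 over the 4 groups and 12 arrays, with the replicate number as a block after the paired test of the methods. Arrays of the same number deviated together (correlations of 0.139 to 0.577 in 18 pairs, against -0.495 to 0.201 in 36 pairs of different number and group). Scripts were tested on simulated data. With 3 arrays a group the precision is limited, and the median SE of a member was 0.091 with a median of 14 kept probes, against 0.099 and 5 over all genes. Alternatives were the scaling, background correction, probe filter, median over probes, slide, intensity trend, samples fitted, left-out arrays and the methods' t-test. All other members are accounted for, and values by array are given for members that passed in at least 1 comparison, the laminin-binding integrins and the epithelial laminin chains. A gene of the rule and a marker gene are not reported here: they stayed in the fit over all genes and were left out of the counts of members and markers. From the related lists the 3 largest changes per comparison are named, beside 6 genes of the adhesion machinery that were chosen after their values were seen. The members and lists were chosen with earlier results of these data known. A few other members are given by array because they came close to the threshold, chosen after their values were seen.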

Additional observations from a re-analysis of the deposited data

How the results depend on the processing

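Over 28 alternatives to the processing, 0 called differences of a single member reversed, 4681 of the members' values kept their side of the threshold, 200 lost and 41 gained a call. Differences without a call could change sign: 17 of 36 estimates with the mimic in unsilenced cells were below 0, and 11 with 75th percentile scaling. With the mimic in unsilenced cells, where 9 members passed, the count was 3 without the replicate block that pairs the arrays, 3 fitted on the compared groups alone, 5 by the methods' t-test at its unadjusted threshold, 0 by it after Benjamini-Hochberg, 7 (2 lower and 5 higher) with the median over probes, and 2 to 9 with an array or a replicate left out. With the mimic in silenced cells (4 members) it was 8 with 75th percentile scaling, 2 without a filter on dim probes, 2 with the median over probes, 0 without the replicate block, 0 with slide as a fixed block, 1 with slide as a random block, 0 fitted on the compared groups alone, 0 by the methods' t-test after Benjamini-Hochberg, and 0 to 6 in the left-out fits. With silencing alone (2 members) it was 1 with the median over probes, 1 without the replicate block, 1 fitted on the compared groups alone, 7 by the methods' t-test unadjusted, 0 after adjustment, and 0 to 2 in the left-out fits. With silencing in mimic-treated cells (2 members) it was 1 with 75th percentile scaling, 1 without the filter, 0 with the median over probes, 0 without the replicate block, 0 fitted on the compared groups alone, 6 by the methods' t-test unadjusted, 0 after adjustment, and 0 to 1 in the left-out fits. For the interaction (0 members) it was 1, ITGA6, with normexp and 1, ITGA6, with a filter that asks for signal well above background on each of the 12 arrays, 3 by the methods' t-test unadjusted, and 0 in the left-out fits. Fewer samples lower the residual degrees of freedom in the fits on 2 groups and in the left-out fits. The estimates also moved in the left-out fits. The cause of the changed counts was not tested for any alternative. Among single members with the mimic in unsilenced cells, ITGA6 passed in 27 of 28 alternatives, ITGA2 in 26 and ITGA1 in 25. LAMB1 and LAMB3 passed in 22 each, LAMA3 in 19, ITGAV in 17, LAMC1 in 16 and ITGB3 in 15. Slide as a fixed block could not be fitted for the silencing comparisons, since no slide holds both, and as a random block its correlation was -0.239. Values of dim members are limited by signal over background.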
